A study of Mus musculus with 4 samples.

Results

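Arg1-high macrophages of LLC tumors (LLC is the mouse Lewis lung carcinoma line) are described here in mice with a blood-cell deletion of S100a8 and in mice without it. They were drawn by a gate on UMIs, the tagged molecules counted in droplet-based single-cell RNA-seq. A barcode, taken as a cell, was a member when it held at least 10 UMIs of Arg1, at least 5 of Lyz2, under 0.5% of its UMIs as S100a9, and none of Cd3e. Only tumor barcodes that showed 200 genes or more, with mitochondrial transcripts making up no more than 10% of UMIs, were gated. It kept 1060 of 23034 such tumor barcodes, 995 in the KO tumor and 65 in the WT tumor, out of 41851 passing barcodes in the series. Because Arg1, Lyz2, S100a9 and Cd3e chose the members, their levels are given as a description and not as a result.

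CD45+ leukocytes were sorted from LLC tumors of KO mice (S100a8 fl/fl Vav-Cre+/-) and WT mice (S100a8 fl/fl Vav-Cre-/-), and from bone marrow of tumor-free KO and WT mice. All groups carry the floxed S100a8 allele. Vav-Cre acts in the blood-forming system, so tumor and stromal cells keep the gene, and CD45 sorting leaves such cells out by design. The labels used here name no treatment and no age, and each group is 1 library pooled from 3 mice. No difference below therefore has a replicate check or a test. Every interval is a 95% interval that covers counting error only, and takes in neither the spread between mice and libraries nor, for levels, that between cells.

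Arginase 1, the product of Arg1, splits L-arginine into ornithine and urea, and in mouse macrophages it is induced by interleukin-4 and by low oxygen and lactate through HIF-dependent transcription. Nos2 encodes the inducible nitric oxide synthase, which uses the same amino acid, and Ptges encodes the microsomal synthase of prostaglandin E2 that acts after cyclooxygenase-2, the product of Ptgs2. In tumors, macrophages with high Arg1 are known for taking up arginine that T cells need. When oxygen is low, HIF proteins escape degradation by prolyl hydroxylases and bind DNA elements whose core reads ACGTG or GCGTG.

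Of the gene lists examined, that of 30 known targets and regulators of the hypoxia response, 29 of them in the files, had the highest share of genes past 2-fold in the members over both other tumor macrophages and monocytes, so the promoters of 4 of its genes are shown. Each is the 250 bases before the RefSeq start of the gene (GRCm38.p6), read 5′ to 3′ on the strand of the gene, with ACGTG or its reverse complement CACGT in capitals. Egln3 lies at chr12:54203875-54204124 (minus strand), Bnip3 at chr7:138909507-138909756 (minus strand), Ankrd37 at chr8:45999851-46000100 (minus strand) and Slc2a1 at chr4:119108495-119108744 (plus strand).
Egln3: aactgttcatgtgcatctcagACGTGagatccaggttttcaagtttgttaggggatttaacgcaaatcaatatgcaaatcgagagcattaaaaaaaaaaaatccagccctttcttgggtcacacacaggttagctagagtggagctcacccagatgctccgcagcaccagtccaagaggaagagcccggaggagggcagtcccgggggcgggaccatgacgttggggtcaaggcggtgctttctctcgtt
Bnip3: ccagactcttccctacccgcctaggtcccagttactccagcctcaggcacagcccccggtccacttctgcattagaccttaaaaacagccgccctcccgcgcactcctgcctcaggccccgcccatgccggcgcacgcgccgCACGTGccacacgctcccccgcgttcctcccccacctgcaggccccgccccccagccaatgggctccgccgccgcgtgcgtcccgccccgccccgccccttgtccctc
Ankrd37: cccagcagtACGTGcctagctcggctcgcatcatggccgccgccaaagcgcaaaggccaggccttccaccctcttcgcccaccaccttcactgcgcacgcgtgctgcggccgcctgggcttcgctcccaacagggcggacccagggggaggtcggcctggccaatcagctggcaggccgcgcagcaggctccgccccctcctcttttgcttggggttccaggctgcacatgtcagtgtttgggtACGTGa
Slc2a1: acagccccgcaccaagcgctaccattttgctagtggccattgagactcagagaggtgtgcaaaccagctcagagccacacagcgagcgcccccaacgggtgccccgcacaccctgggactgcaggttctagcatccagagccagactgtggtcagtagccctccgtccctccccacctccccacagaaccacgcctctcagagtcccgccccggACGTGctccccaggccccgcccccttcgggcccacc
In Bnip3 the match is the palindrome CACGTG, which is also the E-box read by bHLH factors, and it counts on both strands. Ankrd37 holds 2 separate matches, and Egln3 and Slc2a1 hold 1 each. All 4 promoters shown hold a match, and not every promoter of the list does. Those of Adm and Pdk1 held none, and Vegfa and Hilpda each had a promoter with 1 match and another with 0. ACGTG on either strand stood in 5444 of 32851 such promoters (16.6%) and in 16 of the 30 promoters of the 23 list genes in the table (53.3%). With ACGTG or GCGTG counted, the numbers were 12679 of 32851 (38.6%) and 22 of 30 (73.3%). Matches to GCGTG are not in capitals above. Of the 11 promoters of 9 list genes that were more than 2-fold higher in the members than in both comparison populations, 9 held ACGTG. The count was also 9 with either core. The list was chosen as known HIF targets, so a match describes these letters and is not a binding site shown by the data.

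Before the members are described, 4 facts of the libraries bear on them. The KO tumor library held 111214201 UMIs and the WT tumor library 102548178, and passing barcodes had medians of 8500 and 6834 UMIs. S100a8 (ENSMUSG00000056054, GRCm38 chromosome 3, 90668978 to 90670035, plus strand) had 85 UMIs in the KO tumor and 14168 in the WT tumor, which goes with the labels. S100a9, its neighbor, stood at 6465 CPM (UMIs per 1000000 UMIs) over passing KO tumor barcodes and 273 CPM over WT ones. A UMI of S100a9 was found in 44.6% of 1037 KO and 2.37% of 2832 WT tumor T cells (at least 2 Cd3e UMIs and under 5 Lyz2 UMIs, median depths 6746 and 6037 UMIs), which should lack the gene. The same T cells set the background for shares of cells below.

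Arg1 (ENSMUSG00000019987, chromosome 10, 24915221 to 24927484, minus strand) placed 8.72% of passing KO tumor barcodes in the gate (8.21% to 9.25%) and 0.559% of WT ones (0.432% to 0.712%), a ratio of 15.6 (12.1 to 20.01). Among Lyz2 barcodes that met every condition but that on Arg1, the members were 19.8% of 5015 in the KO tumor and 2.25% of 2887 in the WT tumor, a ratio of 8.81 (6.89 to 11.3). In the same barcodes, Arg1 was at 0 UMIs in 63.0% of KO and 91.3% of WT. No member was found among 10853 KO and 7964 WT bone marrow barcodes, and a count of 0, taken to allow 3 barcodes, allows shares of up to 0.0276% and 0.0377%. Only 669 KO and 538 WT bone marrow barcodes met every condition but that on Arg1, with exact upper limits of 0.550% and 0.683%. Passing bone marrow barcodes had median depths of 2839 and 2354.5 UMIs, below the tumor ones, under the same gate of 10 Arg1 UMIs. A T cell carried an Arg1 UMI in 5.01% of KO and 0.883% of WT cases, with at least 10 UMIs in 5 KO cells and 1 WT cell.

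**Figure D1:**
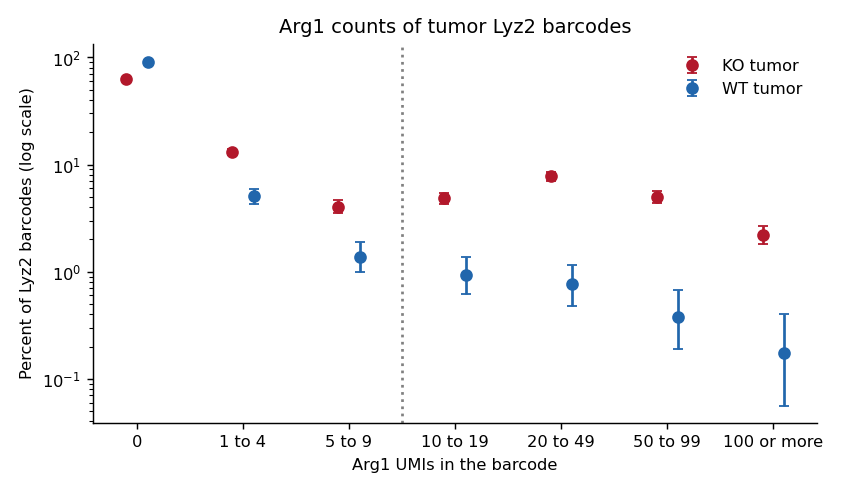
Share of tumor Lyz2 barcodes (percent, log scale) in each range of Arg1 UMIs, KO tumor left of WT tumor in each range, with exact 95% intervals for counting error. The dotted line marks the gate at 10 UMIs. In every range above 0 UMIs the KO share lies above the WT share, and at 100 or more UMIs it is 2.21% in KO and 0.173% in WT.

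Median depth was 11229 UMIs in KO members and 11139 in WT members, with 28 of 995 and 5 of 65 under 5000 UMIs and the deepest at 125318 and 27579. Arg1 ranged over 10 to 244 UMIs per cell in KO members (median 36) and 10 to 180 in WT members (median 25), so the distributions overlap over nearly their whole range. Just inside the threshold, at 10 to 12 UMIs, lay 93 KO and 11 WT barcodes, and just outside, at 7 to 9 UMIs, 115 KO and 18 WT. The outer barcodes had Spp1 at 1636 CPM in the KO tumor and 963 CPM in the WT tumor, and the inner ones at 2411 and 513 CPM. The limit on S100a9 removed 95 KO barcodes and 1 WT barcode, and the one on Cd3e 67 KO and 24 WT. Without the limit on Cd3e, the share was 9.31% in KO and 0.766% in WT, a ratio of 12.2. No barcode sequence of a member was shared between the tumor libraries, which have 33 barcodes in common. Scrublet marked 97 KO members (9.75%) and 5 WT members (7.69%) as doublets, and they were kept. In the C1q macrophages and Ly6c2 monocytes defined below, the marked shares were 5.73% and 5.33% in KO, and 6.13% and 8.09% in WT.

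The label of macrophage was checked against markers. At least 1 UMI of Csf1r, the receptor for colony-stimulating factor 1, or of Cd68 or Adgre1, was found in 99.2% of KO and 98.5% of WT members. Csf1r alone had a UMI in 88.8% of KO and 76.9% of WT members, against 7.14% of KO and 4.84% of WT T cells. For Cd68 the shares were 97.4% and 96.9% of members, against 16.8% and 13.2% of T cells. For Adgre1 they were 49.6% and 43.1%, against 1.93% and 1.20%. All 14 macrophage markers were detected in both libraries, and their summed level was 10692 CPM in KO members and 8520 CPM in WT members. It was 19524 and 18012 CPM in the C1q macrophages defined below, and 6628 and 4482 CPM in Ly6c2 monocytes. Relative to C1q macrophages, 5 of 13 measured markers were past 2-fold lower in the members and none higher. Any C1q genes in that count follow from the gate on C1qa. Complement C1q genes marked only some cells: C1qa reached 10 UMIs in 11.6% of KO members (9.64% to 13.7%) and 10.8% of WT members (4.44% to 20.9%), and in none of the KO and 0.0706% of the WT T cells. Ly6c2, a gene of inflammatory monocytes, reached 5 UMIs in 11.3% of KO members (9.36% to 13.4%) and 40.0% of WT members (28.0% to 52.9%). T cells also express Ly6c2, so they give no background for it.

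Nos2 and Ptges, given as markers of these cells together with Arg1, were detected in part of the members, at higher shares in KO. Nos2 (ENSMUSG00000020826, chromosome 11, 78920787 to 78960254, plus strand) had a UMI in 35.9% of KO members (32.9% to 38.9%) and 16.9% of WT members (8.76% to 28.3%), against 2.41% of KO T cells and none of the WT ones. Ptges (ENSMUSG00000050737, chromosome 2, 30889471 to 30929863, minus strand) had one in 25.3% of KO members (22.7% to 28.1%) and 6.15% of WT members (1.70% to 15.0%), against 1.54% and 0.282% of T cells. Neither was detected in 53.6% of KO and 80.0% of WT members, so the population is defined by Arg1 and not by all of its named markers. In KO, Ptges was detected in 41.2% of KO members with a Nos2 UMI (36.0% to 46.5%) and in 16.5% of those without (13.7% to 19.6%). In WT the counts were 2 of 11 and 2 of 54 cells.

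Set against other myeloid cells of the same tumors, the members were compared with C1q macrophages and Ly6c2 monocytes. Both meet the same gate but hold under 10 Arg1 UMIs. C1q macrophages have at least 10 C1qa UMIs (279 cells in KO, 212 in WT), and Ly6c2 monocytes have under 10 C1qa and at least 5 Ly6c2 UMIs (1408 and 1557). Levels of C1qa against both and of Ly6c2 against the monocytes follow from these definitions. UMIs were summed over the cells of a population and expressed as CPM of that sum, and a gene was measured where the compared populations of each library held at least 50 of its UMIs together. It was counted where its ratio was past 2-fold in the same direction in both libraries. Populations of a library share that library, so agreement of both libraries is not a test.

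Against C1q macrophages, the 12 highest ratios of the members were those of Cxcl3, Mmp8, Serpinb2, Egln3, Tnfrsf9, Ppbp, Impa2, Pdpn, Cxcl1, Il7r, Inhba and Itga1, among them the chemokine genes Cxcl1, Cxcl3 and Ppbp. Of 6067 genes measured, 1.37% were higher and 2.65% lower. Cxcl3, a neutrophil-attracting chemokine, stood in the KO tumor at 5092 CPM in Arg1-high and 466 CPM in C1q macrophages (10.9-fold), and in the WT tumor at 1489 and 106 CPM (14.1-fold). Its relative Cxcl1 was 4.57-fold higher in KO and 4.35-fold in WT, and with members of at least 20 Arg1 UMIs the smaller of its log2 ratios was 1.40 in place of 2.12. Serpinb2, an inhibitor of plasminogen activators, was 13.4-fold higher in KO at 387 CPM and 8.70-fold in WT at 70.2 CPM. The neutrophil collagenase gene Mmp8 was 10.2-fold and 9.61-fold higher. Inhba, which encodes the subunit of activin A, was at 904 CPM in Arg1-high against 216 CPM in C1q macrophages of the KO tumor, and at 406 against 59.8 CPM in WT. Il7r, the interleukin-7 receptor chain better known from lymphocytes, was 4.23-fold higher in KO and 4.23-fold in WT. Pdpn, a mucin-like membrane protein, was 4.46-fold and 6.40-fold higher. Egln3, Tnfrsf9, Ppbp, Impa2 and Itga1 had ratios of 4.52 to 9.60 in KO and 4.14 to 16.7 in WT. For Ppbp, 1 barcode held 46.8% of the WT member UMIs, for Mmp8 32.8%, for Cxcl1 28.5% and for Serpinb2 27.3%. The WT level of Serpinb2 rests on 55 UMIs in 7 members.

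Nos2 itself was 29.3-fold higher in KO members than in KO C1q macrophages (232 against 7.91 CPM, interval 20.9 to 42.4) and 50.5-fold higher in WT (37.01 against 0.734 CPM, interval 12.8 to 436), where the C1q value rests on 2 UMIs. Against monocytes Nos2 was 6.98-fold higher in KO and 17.8-fold in WT. Arg2, the mitochondrial arginase, was 3.98-fold and 4.33-fold above C1q macrophages. Of the 14 measured genes of arginine and polyamine metabolism apart from Arg1, 2 were higher and 1 lower than in C1q macrophages, with Nos2 outside this count because its WT UMIs were under the minimum of 50.

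Genes of the hypoxia response were higher in the members. Against C1q macrophages 12 of its 22 measured genes were past 2-fold higher and none lower, and against monocytes, where 2.79% of 9006 genes were higher and 1.69% lower, 13 of 22 were higher and none lower. The median log2 ratio of the list over C1q macrophages was 1.07 in KO and 1.87 in WT, where that of all genes was -0.22 and -0.13. Over monocytes it was 1.21 and 1.44, beside -0.04 and -0.10 for all genes. The genes past 2-fold over both populations in both libraries numbered 11, namely Vegfa, Bnip3, Egln1, Egln3, Ero1l, Ndrg1, Ankrd37, Hilpda, Ddit4, Slc2a1 and Fam162a.

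Egln3, a prolyl hydroxylase that marks HIF for degradation and is itself a HIF target, stood in the KO tumor at 108 CPM in Arg1-high macrophages, 15.1 in C1q macrophages and 19.9 in monocytes. In the WT tumor the values were 129, 7.70 and 13.6 CPM. That is 7.17-fold over C1q macrophages in KO (5.59 to 9.34) and 16.7-fold in WT (10.4 to 28.2), the largest ratios among the measured genes of the list. Bnip3, which starts the clearance of mitochondria, was at 269, 70.96 and 92.5 CPM in KO and 258, 31.9 and 46.1 CPM in WT. Hilpda, an inhibitor of triglyceride breakdown at lipid droplets, was at 1605 CPM in KO members and 1064 in WT members, 3.30-fold and 7.46-fold over C1q macrophages. Vegfa, the angiogenic growth factor, was 2.60-fold higher in KO (2.42 to 2.80) and 4.59-fold in WT (3.72 to 5.67). It had a UMI in 90.3% of KO and 78.5% of WT members, against 10.5% and 6.71% of T cells. Slc2a1, the glucose transporter GLUT1, was 3.05-fold and 5.52-fold higher. Ankrd37 was at 37.4 CPM in KO members and 106 in WT members, 2.20-fold and 6.28-fold over C1q macrophages.

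**Figure D2:**
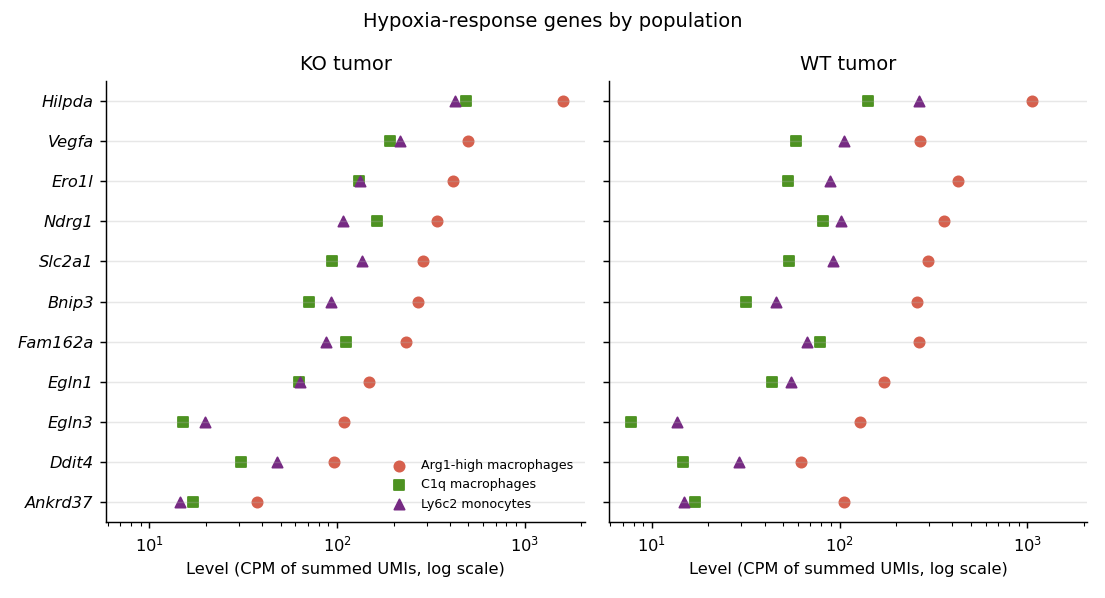
Levels (CPM of summed UMIs, log scale) of the 11 hypoxia-list genes that were past 2-fold over both comparison populations in both libraries, KO tumor in the left panel and WT tumor in the right one. Circles are Arg1-high macrophages, squares C1q macrophages and triangles Ly6c2 monocytes, and each point is 1 library. The circle lies to the right of the other symbols in every row, as the choice of genes fixes, with the widest gap for Egln3 in WT (129 against 7.70 and 13.6 CPM).

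Glycolysis genes lay higher by a smaller margin. Of the list, 2 of 17 were past 2-fold over C1q macrophages and 4 of 20 over monocytes, with median log2 ratios over C1q macrophages of 0.73 in KO and 1.08 in WT. Pgk1, phosphoglycerate kinase, was at 1190.5 CPM in Arg1-high against 548 CPM in C1q macrophages of the KO tumor (2.17-fold), and at 1137 against 342 CPM in WT (3.32-fold). Gapdh was 1.63-fold and 2.06-fold higher. Nuclear-encoded genes of oxidative phosphorylation went slightly the other way, with none of 43 past 2-fold in either direction and medians of -0.33 in KO and -0.36 in WT.

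Several antigen presentation genes were lower in the members than in C1q macrophages. Of 19 antigen presentation genes 7 were past 2-fold lower and none higher, with medians of -0.61 in KO and -0.65 in WT. H2-Ab1, a chain of MHC class II, stood in the KO tumor at 877 CPM in Arg1-high and 3299.7 CPM in C1q macrophages, and in the WT tumor at 1835 and 5860.3 CPM. Cd74, the invariant chain that loads with it, was 3.40-fold lower in KO members and 2.56-fold lower in WT members. The lowest ratios by rank were those of Gas6, a ligand of the phagocytic receptors Axl and Mertk, of the chemokine Ccl8, of Cd72, Cd81, Mgl2 and Pltp, and of C1qa and C1qc, which follow from the gate on C1qa. Ccl8 was at 153 CPM in Arg1-high against 1184 CPM in C1q macrophages in KO, and at 75.3 against 1614 CPM in WT. Apoe, the lipoprotein of resident-type macrophages, was 3.40-fold lower in KO and 2.92-fold lower in WT. Of 12 measured cell cycle genes 7 were lower and none higher. Mki67, a mark of cycling cells, was at 15.1 against 32.3 CPM in KO and at 3.83 against 47.7 CPM in WT, where the member value rests on 3 UMIs.

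Against Ly6c2 monocytes 4 of 13 measured macrophage markers were past 2-fold higher in the members and none lower. C1qa, C1qb and C1qc are among these 4. The gate holds the monocytes under 10 C1qa UMIs, so these ratios follow from it. Of 10 monocyte markers 6, with Ly6c2 by the gate, were lower. Platelet factor 4, encoded by Pf4, was at 5352 CPM in KO members against 118 CPM in KO monocytes (45.5-fold), and at 3794 against 73.2 CPM in WT (51.9-fold). Its neighbor Ppbp had the largest ratios, 101 in KO and 276 in WT, over monocyte levels of 4.54 and 0.504 CPM. The elastase gene Mmp12 was 26.6-fold and 34.1-fold higher, and Hmox1, the heme-degrading oxygenase, 7.42-fold and 10.1-fold. Spp1, which encodes osteopontin, was 6.35-fold higher in KO and 4.58-fold in WT, and was also 2.58-fold and 5.55-fold above C1q macrophages. The mannose receptor gene Mrc1 was 8.32-fold and 4.67-fold above monocytes but below C1q macrophages (1.42-fold in KO and 1.62-fold in WT). Of 25 genes of lysosome and lipid handling 12 were higher than in monocytes and 1 lower, and 11 of 26 inflammatory cytokine and chemokine genes were higher and none lower. Lowest, apart from Ly6c2, were Hp, Tmem176a, Ramp1, Napsa, Tmem176b, St3gal4 and Mgst1. Hp, the haptoglobin gene, was 7.08-fold lower in KO and 3.59-fold lower in WT.

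Across the Lyz2 barcodes of a tumor, several of these genes differed by range of Arg1 UMIs, also below the gate. The summed hypoxia list was 3855 CPM in KO and 2338 CPM in WT barcodes with no Arg1 UMI, 6271 and 5148 CPM at 5 to 9 UMIs, and 8459 and 7483 CPM at 100 or more. The summed antigen presentation list was 18755 CPM in KO and 37895 CPM in WT barcodes with no Arg1 UMI, and 11122 and 9588 CPM at 100 or more UMIs. Nos2 was at 42.4 CPM in KO barcodes with no Arg1 and 363 CPM at 100 or more UMIs, against 1.48 and 34.8 CPM in WT, with WT values between 1.48 and 48.3 CPM in no steady order. At 100 or more UMIs Pf4 was at 8943 CPM in KO barcodes and 16375 CPM in WT barcodes, where the WT value rests on 5 cells. Median depth also differed by range, with 10504.5 UMIs in KO and 8962 in WT barcodes without Arg1, and 13754 and 11832 at 100 or more UMIs, and its part in these values was not tested.

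**Figure D3:**
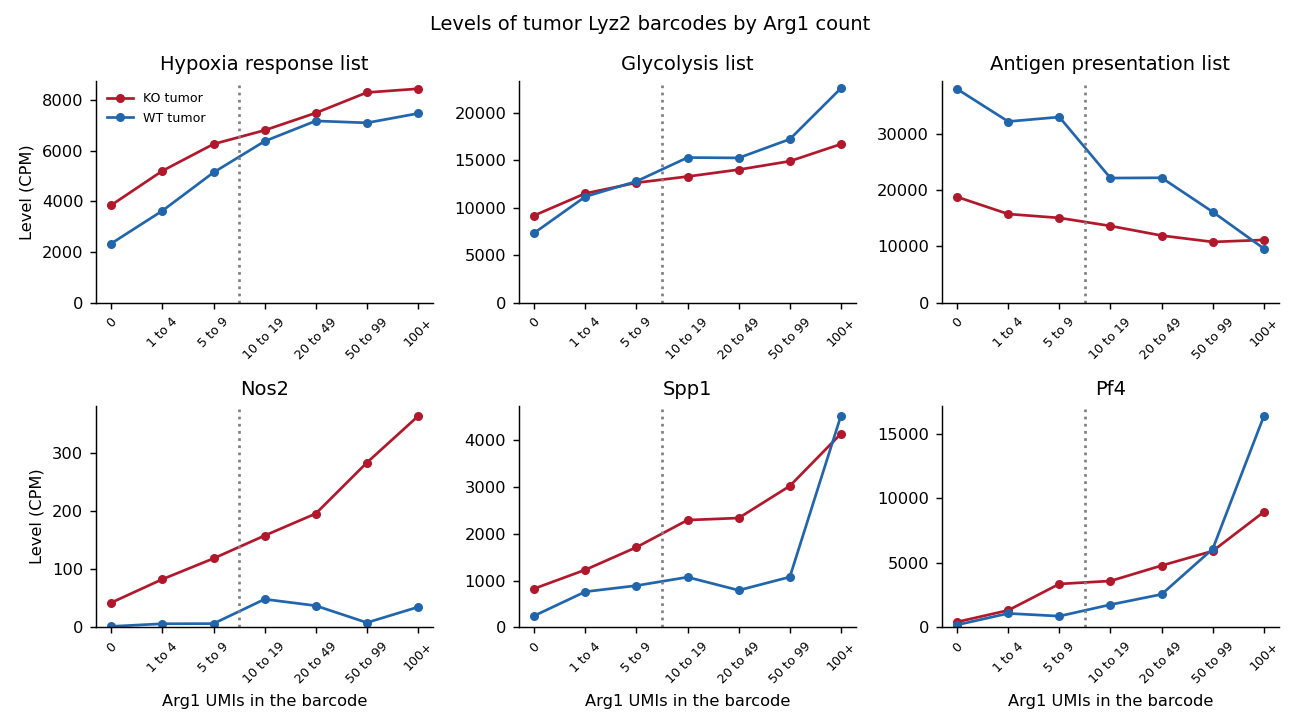
Levels (CPM of summed UMIs) of the hypoxia, glycolysis and antigen presentation lists and of Nos2, Spp1 and Pf4 in tumor Lyz2 barcodes by range of Arg1 UMIs, KO tumor and WT tumor. The dotted line marks the gate at 10 UMIs. In both libraries the hypoxia and glycolysis sums are higher and the antigen presentation sum lower at 100 or more Arg1 UMIs than at 0, and the last 2 WT points rest on 11 and 5 cells.

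Within the members, thinned to 5000 UMIs each (967 KO and 60 WT cells deep enough), the genes most like Arg1 by Spearman coefficient were Gapdh (0.308 in KO, 0.413 in WT), Pdpn (0.289 and 0.286), Ctsl (0.264 and 0.446), Clec4d (0.257 and 0.247), Prdx6 (0.247 and 0.327), Mif (0.240 and 0.383), Pf4 (0.227 and 0.587), Eno1, Abca1 and Pgk1. These coefficients are across cells of 1 library, weak, and given as a description. Over the 2099 genes ranked, the 95th percentile was 0.0932 in KO and 0.222 in WT, and the 5th percentile -0.103 and -0.259. Several of the WT values named lie close to these limits. Gapdh, Eno1 and Pgk1 are glycolytic enzymes and Mif a cytokine induced by hypoxia, and Ctsl is a lysosomal protease. The most negative were Cd52 (-0.266 in KO, -0.342 in WT), Cd74 (-0.255 and -0.335), H2-Aa (-0.254 and -0.336), Plac8 and Laptm5.

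Between KO and WT members, 12.7% of 8560 measured genes were past 1.5-fold higher in KO and 18.3% lower, with an interval clear of 1 for 5.58% and 10.8%. The median log2 ratio of all genes was -0.11. With 65 WT cells, 1 barcode can hold much of a gene's WT total, so that share is given for part of the genes below. Among ranked genes named below without it, the share was 100% for Cstdc4 (on 5 UMIs) and 58.5% for Gzma. It was 34.5% for Klrd1, 33.8% for Cd209a, 33.3% for Fpr1 and 30.2% for Ccl5. Leaving out, for each gene, the barcode with most of its UMIs in each library gave 1660 genes higher and 922 lower of 8360 measured. All barcodes gave 1084 and 1564 of 8560. By construction, this omission takes more from 65 WT than from 995 KO cells. Ratios in C1q macrophages and monocytes are given beside those of the members. In C1q macrophages 7.7% of 7790 genes were higher and 7.25% lower in KO, and in monocytes 4.69% of 10017 were higher and 17.2% lower.

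Several genes of nitric oxide, polyamine and prostaglandin synthesis were higher in KO members. Nos2 was at 232 CPM in KO members and 37.01 CPM in WT members, 6.27-fold higher (4.35 to 9.37), beside 10.8-fold in C1q macrophages, and was at 33.2 CPM in KO monocytes and 2.08 CPM in WT monocytes. Odc1, the ornithine decarboxylase that starts polyamine synthesis, was at 1052 and 322 CPM (3.27-fold, 2.89 to 3.72). Arg2 was 2.32-fold and Smox, a spermine oxidase, 1.88-fold higher. In the arginine and polyamine list, 6 of 15 genes were higher and 1 lower.

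Ptges was at 97.3 CPM in KO members and 5.10 CPM in WT members, 19.1-fold higher (7.42 to 70.03), on 4 WT UMIs in 4 cells. The ratio was 6.66 in C1q macrophages, also on 4 WT UMIs, and 1.09 in monocytes. Ptgs2 (ENSMUSG00000032487), upstream of it, was at 2445 CPM in KO members and 595 CPM in WT members (4.11-fold, 3.75 to 4.51), with a UMI in 89.7% and 55.4% of cells, against 27.8% and 5.16% of T cells. It was 4.13-fold higher in KO C1q macrophages and 2.92-fold in KO monocytes as well. The phospholipases Pla2g7 and Pla2g4a were 2.16-fold and 1.89-fold higher. Genes of other branches were lower in KO members, the thromboxane synthase gene Tbxas1 2.42-fold and Lta4h, the leukotriene A4 hydrolase, 1.85-fold. Over the list, 5 of 14 were higher and 4 lower, with a median log2 ratio of 0.00.

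Inflammatory cytokines and chemokines had the highest median ratio of the lists shown. In the members 15 of 28 were higher in KO and 2 lower (median 0.80). In C1q macrophages the counts were 15 and 2 of 25 (median 0.79), and in monocytes 12 and 4 of 28 (median 0.41). Csf3, the gene of granulocyte colony-stimulating factor, which stands outside this list, was at 294 CPM in KO members on 3932 UMIs and at 2.55 CPM in WT members on 2 UMIs, a ratio of 115 (31.9 to 952). It was found in 34.4% of KO and 3.08% of WT members, against 3.47% and 0.0706% of T cells. Its ratio was 14.95 in C1q macrophages, on 7 WT UMIs, and 13.7 in monocytes, on 41 WT UMIs.

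Il1a was at 321 CPM in KO members and 40.8 CPM in WT members (7.87-fold, 5.57 to 11.5), and Il1b at 11638 and 4419.5 CPM (2.63-fold). Among the neutrophil-attracting chemokines, Cxcl1 was at 3326 and 479 CPM (6.95-fold, with 28.5% of the WT UMIs from 1 barcode), Cxcl2 at 27485 and 9631 CPM (2.85-fold) and Cxcl3 3.42-fold higher. These ratios in C1q macrophages were 6.61, 2.10 and 4.41. Among other chemokines, Ccl3 and Ccl4 were 3.98-fold and 3.84-fold higher in KO, and Ccl5, which T and NK cells also make, was at 78.03 CPM in KO members and 402 CPM in WT members, 5.15-fold lower (4.53 to 5.85). Ccl2, the monocyte attractant, was at 2829 and 3914 CPM, a ratio of 0.723 that is within 1.5-fold. Il6 was at 23.9 and 28.1 CPM, with 72.7% of the WT UMIs from 1 barcode. Tnf was 2.57-fold higher, beside 2.16 in C1q macrophages and 0.988 in monocytes.

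The other genes of the 10 highest ratios were acute-phase, antimicrobial and neutrophil-associated genes. Saa3, a serum amyloid A gene, was at 189.9 CPM in KO members, with 16.8% of its UMIs from 1 barcode, and at 1.28 CPM in WT members on 1 UMI (149-fold, 26.7 to 5879). Lcn2, the siderophore-binding lipocalin, was at 124 and 1.28 CPM, again on 1 WT UMI (96.8-fold, 17.4 to 3827). In members thinned to 5000 UMIs the log2 ratio of Saa3 was 4.22 in place of 7.22 and that of Lcn2 3.69 in place of 6.60, and Csf3 ranged over 5.58 to 7.82 across the alternatives. Ifitm1 was at 1794 and 153 CPM (11.7-fold) and Slpi, a protease inhibitor of secretions, at 3041 and 357 CPM (8.51-fold). In T cells an Ifitm1 UMI was found in 50.7% of KO and 14.9% of WT. Its level there was 1844 CPM in KO and 411.5 CPM in WT, above the member levels, so T cells give no background for Ifitm1. A Lcn2 UMI was found in 6.56% of KO and 0.212% of WT T cells, beside 18.4% and 1.54% of members. Fpr1, a receptor for bacterial formyl peptides, was 8.71-fold higher, and Cstdc4, a stefin-like gene with close copies that may split its reads, 8.42-fold, or 0.94 in log2 without doublet-marked barcodes, in place of 3.07. Mmp9 was 12.7-fold higher (7.42 to 23.9), with 76.9% of its WT UMIs from 1 barcode. Without each library's top barcode its log2 ratio was 5.59, in place of 3.67. The Mmp9 ratio was 60.4 in C1q macrophages, on 4 WT UMIs, and 0.659, the other direction, in monocytes. Of 9 measured neutrophil markers 5 were higher in KO and 1, the deleted S100a8, was lower, and 11 of 12 were detected in each library, with Camp at 0 in both. Apart from S100a9 their sum was 3252 CPM in KO members and 2127 CPM in WT members, of which S100a11, also a macrophage gene, made 2696 and 1761 CPM. With doublet-marked barcodes left out, the median log2 ratio of that list was -0.20 over the 7 genes still measured, and it was 0.61 over 9 with them, and the part of neutrophil RNA in the genes above was not tested.

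**Figure D4:**
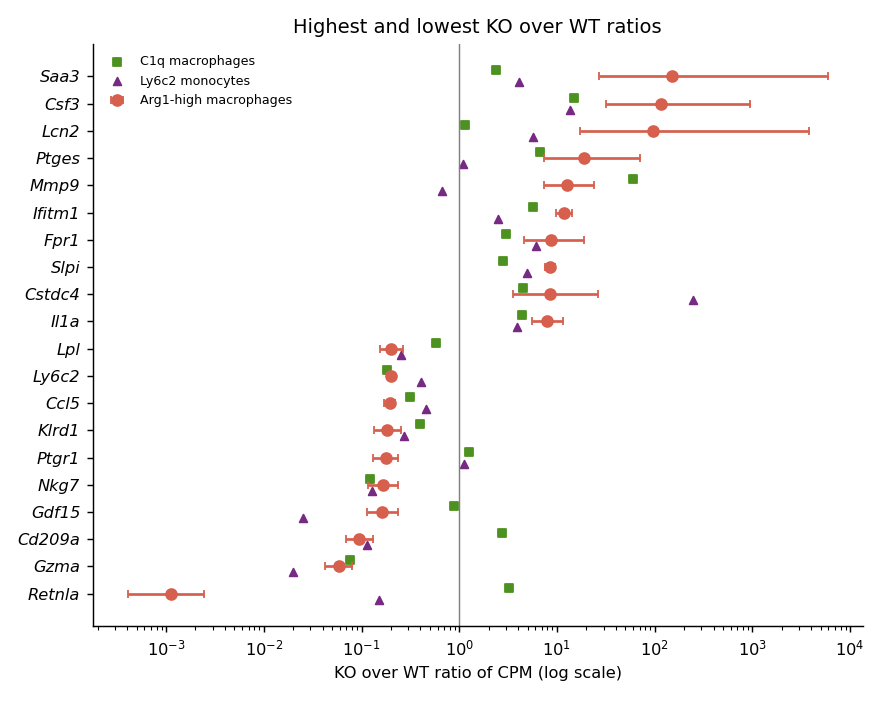
KO over WT ratio of CPM (log scale) for the 10 highest and 10 lowest genes in Arg1-high macrophages (circles, with exact 95% intervals for counting error), and the same ratio in C1q macrophages (squares) and Ly6c2 monocytes (triangles). Csf3, Il1a, Slpi and Ifitm1 lie above 1 in all 3 populations, while Retnla and Cd209a lie below 1 in Arg1-high macrophages and above 1 in C1q macrophages.

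Matrix and protease genes were also higher in KO members, 10 of 21 against 2 lower (median 0.47). Thbs1, the matricellular protein thrombospondin-1, was at 9525 CPM in KO members and 3151 CPM in WT members (3.02-fold, 2.90 to 3.15), and 3.11-fold and 2.58-fold higher in C1q macrophages and monocytes. Serpinb2 was 5.51-fold, the membrane collagenase gene Mmp14 3.85-fold and Mmp13 3.24-fold higher.

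Antigen presentation was lower in KO members: 12 of 20 genes were past 1.5-fold lower and none higher (median -0.72), with 12 of 19 lower in C1q macrophages (median -0.73) and 14 of 20 in monocytes (median -0.89). H2-Aa was at 825 CPM in KO members and 1724 CPM in WT members (2.09-fold lower, 1.97 to 2.21), H2-Ab1 2.09-fold and Cd74 2.07-fold lower. Class I genes differed less, with H2-K1 at 1082 and 1373 CPM, a ratio of 0.788. Of the type I interferon list 15 of 32 were lower and 3 higher (median -0.55), beside 18 and 1 of 32 in C1q macrophages (median -0.71) and 24 and none of 34 in monocytes (median -0.92). Irf7, the transcription factor that amplifies this response, was at 85.3 and 211 CPM (2.47-fold lower, 2.08 to 2.91), and Bst2, the antiviral tetherin, at 159 and 328 CPM. Ifit1, Ifit3 and Rsad2 were the higher ones, with 42.9% to 62.5% of their WT UMIs from 1 barcode.

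Ly6c2 was at 164 CPM in KO members and 815 CPM in WT members (4.97-fold lower, 4.54 to 5.43), and it was 5.44-fold lower in KO C1q macrophages as well. Among the 10 monocyte markers 4 were lower and 1, Vcan, was higher. All markers of T and NK cells but Cd3e, which the gate holds at 0, were detected in both libraries, and all 6 measured ones were lower in KO. Their sum was 41.2 CPM in KO members and 302 CPM in WT members, with 41.2 and 301 CPM in C1q macrophages and 44.8 and 416 CPM in monocytes. A UMI of Cd3d or Trac was found in 4.12% of KO and 18.5% of WT members. Gzma, Nkg7, Klrd1 and Ccl5, genes of cytotoxic lymphocytes, stood among the 10 lowest ratios, Gzma at 6.13 CPM in KO members and 105 CPM in WT members (17.1-fold lower). The part of lymphocyte RNA in these values was not tested.

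Iron, heme and redox genes split. Hmox1 was at 700.4 CPM in KO members and 2223 CPM in WT members, 3.17-fold lower (3.01 to 3.34), while its ratio was 1.38 in C1q macrophages and 0.431 in monocytes. The ferritin light chain gene Ftl1 was 1.93-fold lower, the peroxiredoxin gene Prdx1 2.78-fold and Gclm, a subunit of glutathione synthesis, 3.30-fold. Slc7a11, the cystine importer, was at 524 and 149 CPM (3.51-fold higher, 2.92 to 4.25), and Sod2, the mitochondrial superoxide dismutase, 3.14-fold higher. Across the list 8 of 19 were higher and 6 lower, with a median log2 ratio of 0.23.

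Lipid handling split as well, with 5 of 25 higher and 6 lower. The cholesterol exporter gene Abca1 was at 405 CPM in KO members and 128 CPM in WT members (3.18-fold higher), and Spp1 at 2739 and 1229 CPM (2.23-fold, 22.6% of the WT UMIs from 1 barcode). Lpl, lipoprotein lipase, was at 18.6 and 91.9 CPM (4.95-fold lower, and -3.36 in log2 as a mean over barcodes, in place of -2.31), and the fatty acid scavenger gene Cd36 at 45.4 and 194 CPM (4.27-fold lower, beside a ratio of 1.505 in C1q macrophages). Ptgr1, a prostaglandin reductase, was 5.66-fold lower. Gdf15, a stress cytokine, was 6.14-fold lower, but 75.6% of its WT UMIs came from 1 barcode, and with members of at least 20 Arg1 UMIs its log2 ratio was 0.11. Cd209a, a lectin of monocyte-derived dendritic cells, was at 7.86 CPM in KO members and 82.95 CPM in WT members, with log2 ratios between -4.78 and -2.68 across the alternatives. Of 5 measured dendritic cell markers 3 were lower and 2 higher, and their sum was 77.3 CPM in KO members and 208 CPM in WT members.

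Hypoxia and glycolysis genes had medians near that of all genes between KO and WT members. In the hypoxia list 4 of 23 were higher and 3 lower (median -0.03), and in glycolysis 2 of 20 higher and 1 lower (median -0.08). Egln3 was at 108 CPM in KO members and 129 CPM in WT members, a ratio of 0.841 (0.687 to 1.04), and Bnip3 had a ratio of 1.04 (0.904 to 1.21). In C1q macrophages 11 of 22 hypoxia genes were higher in KO and none lower (median 0.57), and in monocytes 6 of 23 (median 0.26). Within the list, Hif1a (2.07-fold), Vegfa (1.85-fold, 1.61 to 2.13), Hilpda (1.51-fold) and Ddit4 (1.55-fold) were higher in KO members, and Ankrd37 was 2.83-fold lower (2.22 to 3.58). Oxidative phosphorylation genes had 1 of 43 higher and none lower. Of 16 measured checkpoint ligand genes 4 were higher and 1 lower: Cd274, which encodes PD-L1, was at 174 CPM in KO members and 102 CPM in WT members (1.70-fold, 1.36 to 2.15), and Vsir was 1.52-fold lower.

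**Figure D5:**
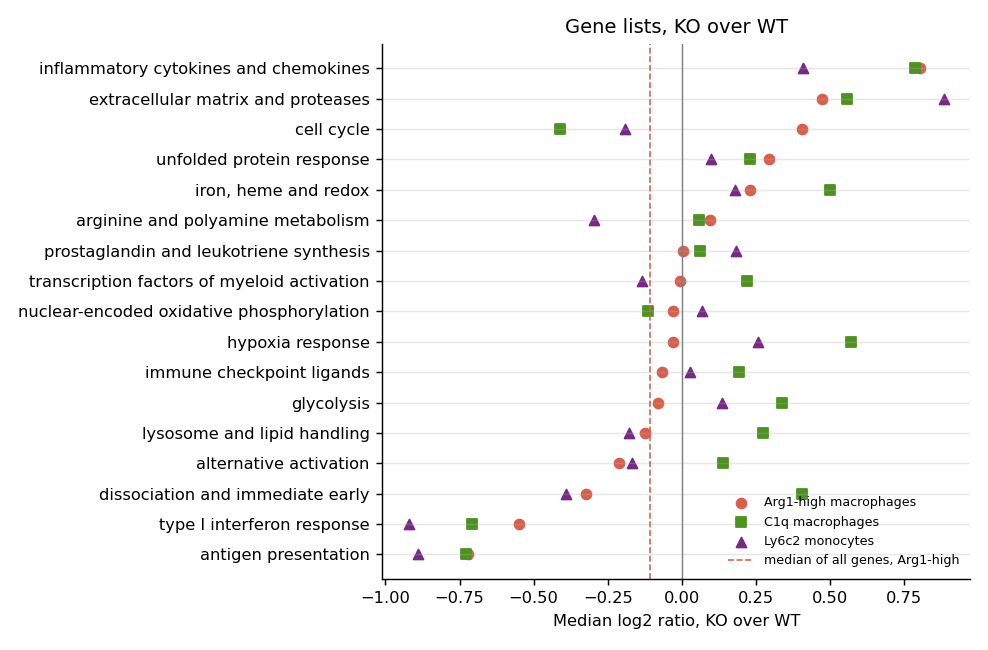
Median log2 ratio (KO over WT) of 17 gene lists in Arg1-high macrophages (circles), C1q macrophages (squares) and Ly6c2 monocytes (triangles), with the median of all genes in Arg1-high macrophages as a dashed line. Cytokine and matrix lists lie above 0 and interferon and antigen presentation lists below 0 in all 3 populations, while the hypoxia list is at -0.03 in Arg1-high macrophages, 0.57 in C1q macrophages and 0.26 in monocytes.

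Alternative activation genes had 5 of 16 higher and 5 lower (median -0.21), with Mrc1 1.90-fold higher. Retnla, a secreted product of alternative activation, had the lowest ratio of all named genes, at 0.449 CPM in KO members and 402 CPM in WT members, where 2 cells held all its UMIs and 1 of them 60%. Immediate early and heat shock genes had 3 of 26 higher and 7 lower (median -0.32), unfolded protein response genes 5 of 20 higher and none lower (median 0.29), and myeloid transcription factors 4 of 31 higher and 9 lower (median -0.01). Cell cycle genes had 7 of 19 higher and 3 lower, with an interval clear of 1 for 2 and 1, Mki67 being at 15.1 CPM in KO members and 3.83 CPM in WT members. Of the other S100 genes, S100a6 was at 5122 and 3991 CPM, a ratio of 1.28. Macrophage markers had 2 of 14 higher and 3 lower. Markers of B cells summed to 10.3 CPM in KO members and 25.5 CPM in WT members, those of mast cells and basophils to 2.99 and 8.93 CPM, and those of tumor and stromal cells to 59.7 and 39.6 CPM.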

How the data were processed

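The labels describe 4 single-cell RNA-seq libraries (10x Genomics) of CD45+ cells, 1 per group. What was deposited are matrices of whole UMI counts, not normalized, made by Cell Ranger, per the file headers in version 6.0.2 for tumor and 3.1.0 for bone marrow. The submitters' processing notes list the builds mm10 and GRCm38, R 4.2.1, Seurat 4.3.0 and a Cell Ranger of version 6.1.2. The files' barcodes start at 500 UMIs, so a filter was applied before deposit.

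Members, C1q macrophages and monocytes were gated on raw counts. Counts were summed per library and population and scaled to CPM. With 1 library per group no test was run. Shares have exact Clopper-Pearson intervals, ratios of levels exact conditional ones and the ratio of shares a Katz interval, all at 95%, and UMIs were taken as independent. A gene was measured with at least 50 UMIs, and called past 1.5-fold between KO and WT or past 2-fold in both libraries between populations. A level of 0 was set to the floor of 3 UMIs for ratios. The ratio and interval code was tested on simulated data.

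Scrublet (scanpy 1.11.5) marked doublets at a rate set by the number of barcodes, and these were kept. Named genes were the 10 highest and 10 lowest KO over WT ratios (at least 50 CPM in either library and 100 UMIs), the 12 highest and 8 lowest against each population, the 10 most and 5 least like Arg1 (detected in at least 20% of members), and list genes with at least 100 UMIs. Predicted, ribosomal, mitochondrial, hemoglobin, antigen receptor and sex-linked genes were left out of these ranks. Members and lists were chosen with earlier results of these data known. The labels name no batch. Python 3.11.15, numpy 2.4.6, pandas 2.3.3 and scipy 1.17.1 were used. Alternatives changed the gate, depth, scaling, doublets and UMI minimum.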

Additional observations from a re-analysis of the deposited data

Results flagged for a closer look

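Among named and list genes with, in both populations, at least 100 UMIs over both libraries and 50 CPM in either, 3 were past 1.5-fold between KO and WT in one direction in Arg1-high macrophages and in the other in C1q macrophages. Genes below these minimums, such as Cd209a, or within 1.5-fold in C1q macrophages, such as Hmox1, are not among them. The difference between the populations was not tested, since each value is 1 library. Retnla had a log2 ratio of -9.81 in Arg1-high macrophages (0.449 CPM in KO, 402 CPM in WT) and 1.70 in C1q macrophages (80.03 CPM in KO, 24.6 CPM in WT). In the WT members 1 barcode held 60% of its UMIs, and in KO C1q macrophages a single cell held all 344. The heat shock genes Hspa1a and Hspa1b, which encode inducible HSP70 chaperones, had log2 ratios of -1.63 and -1.74 in Arg1-high macrophages and 1.14 and 1.41 in C1q macrophages. Hspa1a stood at 399 CPM in KO members and 1239 CPM in WT members, where 1 barcode held 33.3% of its WT UMIs, and Hspa1b at 125 and 417 CPM, with 35.2% from 1 barcode.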

How the results depend on the processing

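Shares moved with the gate. With at least 5 Arg1 UMIs they were 10.5% in KO and 0.904% in WT (ratio 11.6), and with at least 20, 6.60% and 0.327% (ratio 20.2). They were 7.96% and 0.431% in barcodes thinned to 5000 UMIs, 9.48% in KO without the limit on S100a9, and 9.31% and 0.766% without that on Cd3e, an alternative chosen after seeing the data. The UMI minimum changed how many genes were measured. At least 200 UMIs per gene gave 531 higher and 670 lower of 5484 measured between KO and WT. The counts were 44 and 57 of 2344 against C1q macrophages and 125 and 94 of 6134 against monocytes. At least 1 UMI gave 1264 higher and 3297 lower of 11114 between KO and WT. The counts were 232 and 413 of 10735 against C1q macrophages and 600 and 158 of 10993 against monocytes. Thinning gave 85 lower of 3212 measured against C1q macrophages, beside 161 of 6067. A mean over barcodes gave 262 lower against monocytes, beside 152 of the same 9006, and the cause was not tested. Without each library's top barcode for the gene, also chosen after seeing the data, 1660 were higher and 922 lower of 8360 between KO and WT. By construction this takes more from 65 WT than from 995 KO cells. The log2 ratio of Gdf15 turned to 0.11 with at least 20 Arg1 UMIs, and the median of neutrophil markers to -0.20 over 7 genes without marked doublets, beside 0.61 over 9, and the cause was not tested. Of the KO over WT ratios of named genes under the alternatives, 125 kept within the counting interval, 26 left it in the same direction and 1, that of Gdf15, changed direction. No paired analysis was possible because each group is 1 library without a replicate number.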
